A study of Mus musculus with 3 samples.

Results

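M1-rich spots were the spots of regenerating mouse muscle in which the estimated transcript fraction of M1 macrophages, called theta, was at least 0.02. There were 242 such spots among 2758 in 3 sections, and they were set against the 2248 M1-low spots, with a theta under 0.01, of the same sections. The other 268 spots lay between. The spots were chosen by the M1 theta itself, so its level in them is a description and not a result.

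The sections were spatial RNA sequencing (Visium) samples of tibialis anterior muscle from female mice aged 5 months, of the C57BL6/J strain per the study's methods. All muscles had been injured with notexin, a snake venom toxin that destroys muscle fibers and spares much of the stem cell pool, and they were collected at 2, 5 and 7 days post injury (dpi). The comparison asks which cell types share a spot with M1 macrophages as repair proceeds. There was 1 section per time point and no uninjured section, so a difference between times cannot be told apart from a difference between mice or sections, spots are not replicates, and no p-value is given. A spot averages over several cells, and theta is a share of transcripts estimated by deconvolution with BayesPrism, so that fewer cells of a type and less RNA per cell cannot be told apart.

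Macrophages labelled M1 are the inflammatory form, which arises from blood monocytes that enter damaged muscle and which releases cytokines such as interleukin 1 beta (Il1b) and the monocyte attractant Ccl2. They clear debris and are known to favor the proliferation of muscle stem cells, and are followed in time by M2 macrophages, which are associated with differentiation of the new fibers and with remodeling of the matrix. The values used here hold no genes, so Il1b and Ccl2 were not analysed here and the label M1 rests on the deconvolution alone.

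The sections held 859, 933 and 966 spots at 2, 5 and 7 dpi, with medians of 5786, 11221 and 15135 unique molecular identifiers (UMIs, the count of distinct transcripts) per spot. Their totals were 5710385, 10803761 and 14734531 UMIs. Depth was therefore higher at the later time points, and shares, correlations and the medians named below were also taken in spots with 5000 to 10000 UMIs. Between 568 and 739 spot barcodes were shared by any pair of sections, because the capture areas carry one set of spot barcodes, so shared barcodes do not mark shared tissue. Of these, 0 to 5 were M1-rich in both sections of a pair. In the pairs with 2 dpi, only 4 shared barcodes were M1-rich at 5 dpi and 9 at 7 dpi. In the pair of 5 and 7 dpi, 6 and 9 were M1-rich. The overlap was thus bounded by few spots.

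By the theta as deposited, M1-rich spots were frequent at 2 dpi and rare later. They were 215 of 859 spots (25.03%, exact 95% interval 22.2 to 28.1%) at 2 dpi, 15 of 933 (1.61%, 0.903 to 2.64%) at 5 dpi and 12 of 966 (1.24%, 0.643 to 2.16%) at 7 dpi. The intervals here and below are Clopper-Pearson intervals and cover counting error only. The intervals of the later sections overlapped each other and lay below that of 2 dpi. With theta rescaled to leave out the myonuclei, 74.3, 30.3 and 22.4% of spots reached 0.02, so they were fewer but not rare in the later sections on that scale.

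The high values were also higher at 2 dpi. The sections reached a largest M1 theta of 0.199, 0.0459 and 0.0719, in the same order. A theta of at least 0.05 was found in 50 spots at 2 dpi, in 0 of 933 at 5 dpi, which allows a share of up to 0.322% when a count of 0 is taken as under 3 (0.395% by the exact interval), and in 1 spot at 7 dpi. A theta of at least 0.1 was found in 12 spots, all at 2 dpi.

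**Figure D1:**
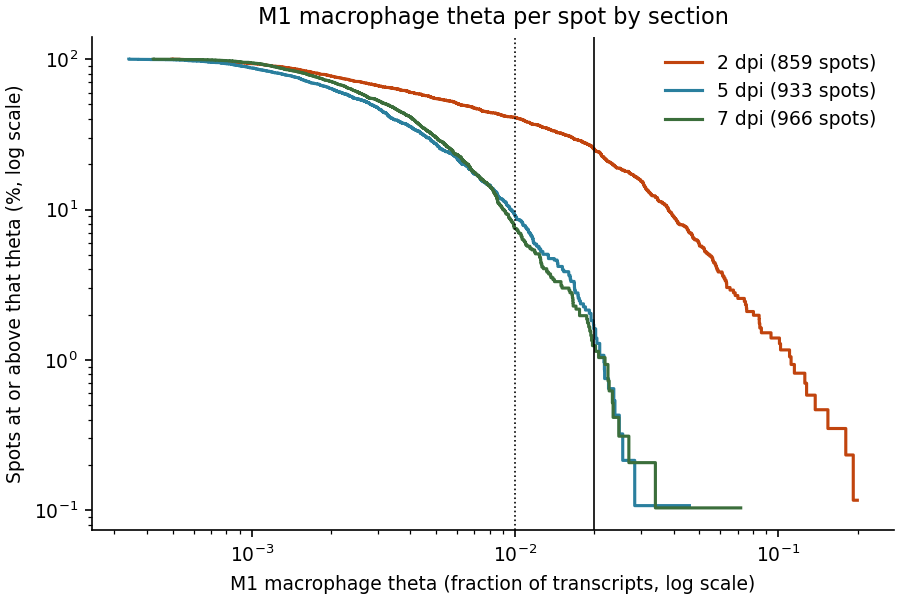
Percent of spots (vertical axis, log scale) at or above each M1 macrophage theta (horizontal axis, fraction of transcripts, log scale), 1 line per section; the solid line marks the minimum of M1-rich spots (0.02) and the dotted line the limit of M1-low spots (0.01). The 2 dpi line crosses 0.02 at 25.03% of spots and the 5 and 7 dpi lines at 1.61 and 1.24%.

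The mean M1 theta over all spots was 0.0151, 0.00432 and 0.00453 at 2, 5 and 7 dpi, and the median was 0.00614, 0.00283 and 0.00326. The gap between 2 dpi and the later sections was thus smaller for the mean and median than for the share of M1-rich spots. M1-rich spots held 71.3% of the summed M1 theta at 2 dpi, against 9.02% at 5 dpi and 7.67% at 7 dpi. M1 macrophages ranked sixth of 27 types by mean theta at 2 dpi, and held rank 19 at 5 dpi and rank 22 at 7 dpi.

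The threshold fell in a continuous range of values. Just outside and just inside it lay spots with 0.01997 and 0.02004 at 2 dpi, 0.01988 and 0.02022 at 5 dpi, and 0.01966 and 0.02020 at 7 dpi. At 5 and 7 dpi most M1-rich spots lay close to it, with medians of 0.0219 and 0.0231, while the median at 2 dpi was 0.0329.

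M1-rich spots at 2 dpi were shallow. They held a median of 3411 UMIs, with quartiles of 2182 and 5187, against 7715 in M1-low spots. The share of M1-rich spots was 50.8% of 183 spots under 3000 UMIs, 33.5% of 191 spots with 3000 to 5000, 15.4% of 305 with 5000 to 10000 and 6.18% of 178 with 10000 to 20000. At 5 and 7 dpi the share was between 0 and 4.26% in every range of depth.

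The difference between time points was also present at like depth. In spots with 5000 to 10000 UMIs, 47 of 305 (15.4%, 11.5 to 19.96%) were M1-rich at 2 dpi, 5 of 255 (1.96%, 0.640 to 4.52%) at 5 dpi and 3 of 163 (1.84%, 0.381 to 5.28%) at 7 dpi. The mean M1 theta in those spots was 0.0110, 0.00486 and 0.00538.

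**Figure D2:**
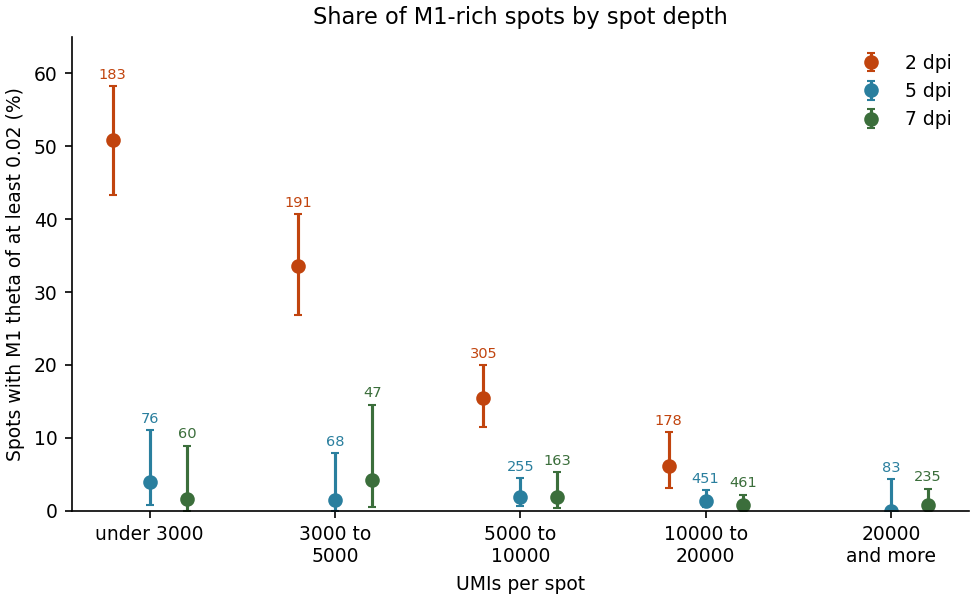
Share of M1-rich spots (%, vertical axis) by UMIs per spot (horizontal axis) in each section; bars are exact 95% intervals and the small numbers are the spots in each range (the 2 spots with 20000 UMIs or more at 2 dpi are not drawn). The 2 dpi share falls from 50.8% to 6.18% with depth, and the later sections stay at or under 4.26% throughout.

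Over all spots of a section, Spearman's rank correlation between M1 theta and UMI count was -0.58, -0.32 and -0.30 for 2, 5 and 7 dpi. In spots with 5000 to 10000 UMIs it was -0.32, -0.052 and -0.21. Within the M1-rich spots it was 0.047, 0.26 and 0.32, over 215, 15 and 12 spots. M1 theta thus went down with depth across the section, and this was not seen among the M1-rich spots. The selection narrows the range of M1 theta in them, and the later sections hold few. Their relation to depth can therefore not be read from these values. All rank correlations are over spots of 1 section, which share a library, and are descriptions.

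M1-rich spots had less mature fiber signal than M1-low spots. Type IIb myonuclei, the nuclei of the fastest and most glycolytic fibers, had a median theta of 0.430 in M1-rich and 0.822 in M1-low spots at 2 dpi, 0.420 and 0.606 at 5 dpi, and 0.374 and 0.582 at 7 dpi. The theta left for all types other than the type IIb and IIx myonuclei (the nonmyonuclear theta) had a median of 0.548, 0.570 and 0.586 in M1-rich spots, against 0.102, 0.189 and 0.284 in M1-low spots. No M1-rich spot had a nonmyonuclear theta under 0.237 at 2 dpi, 0.418 at 5 dpi or 0.431 at 7 dpi.

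In spots with a nonmyonuclear theta of at least 0.4, a minimum set after the values were seen, the M1-rich spots of 2 dpi numbered 190 of 333 (57.1%), those of 5 dpi 15 of 255 (5.88%) and those of 7 dpi 12 of 366 (3.28%). With 5000 to 10000 UMIs as well, they were 43 of 93 (46.2%, 35.8 to 56.9%), 5 of 52 (9.62%, 3.20 to 21.0%) and 3 of 46 (6.52%, 1.37 to 17.9%). The order of 2 dpi above the later sections was thus also found among spots with like depth and much nonfiber signal.

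The share of mitochondrial transcripts, which is high in fibers, was low in M1-rich spots. Its median was 13.9% of UMIs in M1-rich and 34.3% in M1-low spots at 2 dpi, 9.46 and 26.2% at 5 dpi, and 11.3 and 17.7% at 7 dpi. Transcripts of ribosomal proteins, which build the machinery of translation, went the other way, with 8.50 and 4.28% at 2 dpi, 12.9 and 6.04% at 5 dpi, and 11.0 and 7.58% at 7 dpi. At 5000 to 10000 UMIs there were 47, 5 and 3 M1-rich spots. The mitochondrial medians there were 12.8 and 34.7%, 9.79 and 24.8%, and 10.1 and 19.2%. Those of ribosomal proteins were 9.65 and 4.40%, 13.6 and 6.25%, and 11.2 and 6.68%. Both gene groups were left out of the deconvolution, per the study's methods, so neither entered the choice of spots directly.

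These differences were small among spots alike in nonfiber signal. With a nonmyonuclear theta of at least 0.4, the mitochondrial medians were 13.1% in 190 M1-rich and 14.2% in 58 M1-low spots at 2 dpi, 9.46 and 10.0% at 5 dpi, and 11.3 and 11.3% at 7 dpi. The ribosomal protein medians were 8.76 and 8.33%, 12.9 and 11.7%, and 11.0 and 10.5%. The quartile ranges of M1-rich and M1-low spots overlapped in each of these comparisons. The depth difference did not go away, with a median of 3549.5 UMIs in M1-rich and 8631.5 in M1-low spots at 2 dpi, 9709 and 14501 at 5 dpi, and 10401.5 and 17920.5 at 7 dpi.

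**Figure D3:**
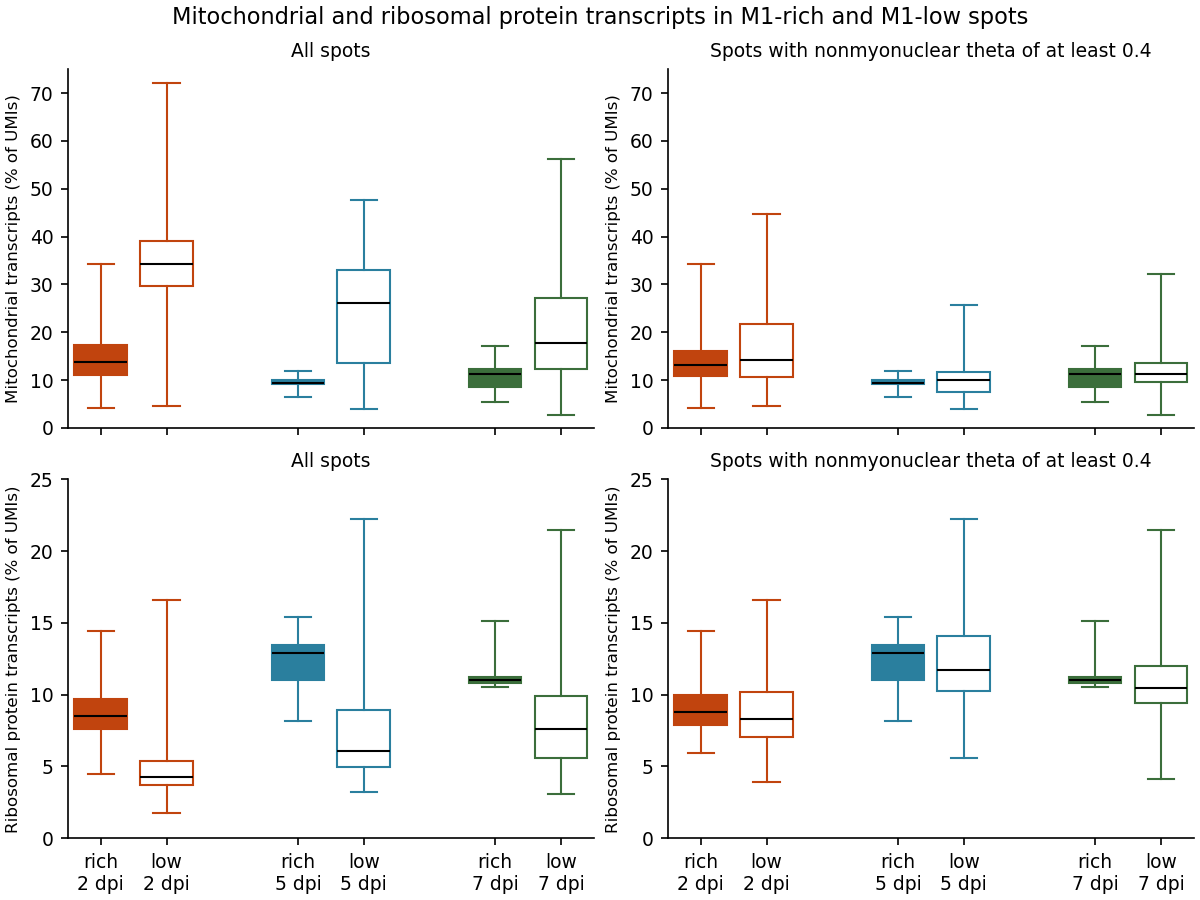
Mitochondrial (top) and ribosomal protein (bottom) transcripts in percent of UMIs for M1-rich (filled) and M1-low (open) spots by section, over all spots (left) and over spots with a nonmyonuclear theta of at least 0.4 (right); boxes are quartiles with the median, whiskers the lowest and highest spot. The 2 dpi mitochondrial medians of 13.9 and 34.3% at left become 13.1 and 14.2% at right.

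Hemoglobin transcripts, a sign of red blood cells, were detected in overlapping shares of M1-rich and M1-low spots. No hemoglobin UMI was counted in 73.0% of M1-rich and 71.9% of M1-low spots at 2 dpi, in 13.3 and 14.2% at 5 dpi, and in 16.7 and 7.94% at 7 dpi. The exact intervals of M1-rich and M1-low spots overlapped in all 3 sections. The count of genes detected was a median of 1547 in M1-rich and 1779.5 in M1-low spots at 2 dpi, 2966 and 2367.5 at 5 dpi, and 3131 and 3005.5 at 7 dpi. With 5000 to 10000 UMIs it was higher in M1-rich spots in each section, at 2457 and 1747, 2877 and 1950, and 2446 and 2126. The M1-rich spots there numbered only 47, 5 and 3.

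Of the 26 other types, patrolling monocytes had the largest ratio of M1-rich to M1-low median theta at 2 dpi. Monocytes of this name are known to survey vessel walls. The study describes its own as high in Fabp5 and without Cx3cr1 or Ly6c2, and whether both are the same cells was not tested. Patrolling monocytes had a median theta of 0.125 in M1-rich spots, with quartiles of 0.0609 and 0.213. In M1-low spots it was 0.00299, a 41.9-fold difference between medians. This fold was 5.46 for means, 7.67 after rescaling without the myonuclei and 73.1 in spots with 5000 to 10000 UMIs. At 5 dpi the medians were 0.0109 and 0.00269, and at 7 dpi they were 0.00854 and 0.00365. Patrolling monocytes reached a theta of 0.02 in 202 of 215 M1-rich spots (94.0%) at 2 dpi, in 3 of 15 at 5 dpi and in 0 of 12 at 7 dpi. In M1-low spots the shares were 10.9, 2.95 and 4.59%. The exact interval of 0 of 12 reached 26.5%, so at 7 dpi M1-rich and M1-low spots cannot be told apart by this share.

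In most M1-rich spots of 2 dpi another myeloid type exceeded M1 macrophages. Among the 8 myeloid types (3 monocyte, 3 macrophage, dendritic cells and neutrophils), patrolling monocytes had the highest theta in 170 of the 215 spots, and M1 macrophages in 16. At 5 dpi M1 macrophages were highest in 6 of 15 spots and Cx3cr1-hi M2 macrophages in 4. At 7 dpi M1 macrophages and Cx3cr1-lo M2 macrophages were highest in 4 of 12 spots each, and Cx3cr1-hi M2 macrophages in 3. Choosing spots by M1 theta favors M1 macrophages in this ranking, and the later sections hold few spots. A change between time points can therefore not be read from these counts.

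More patrolling monocyte signal did not always mean more M1-rich spots. At 2 dpi the share of M1-rich spots was 1.12% where patrolling monocyte theta was under 0.01, 16.3% from 0.01 to 0.02, 51.6% from 0.02 to 0.05 and 66.1% from 0.05 to 0.1. Above that it was 58.3% from 0.1 to 0.2, 52.1% from 0.2 to 0.4 and 43.3% of the 30 spots from 0.4 up. The intervals of the 5 ranges from 0.02 up overlapped, and median UMIs also differed between them, from 3068 to 7647. The part of depth in this shape was not tested. Spots with a nonmyonuclear theta of at least 0.4 had a median patrolling monocyte theta of 0.140 when M1-rich and 0.191 when M1-low, so the 41.9-fold difference over all spots was not found there.

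**Figure D4:**
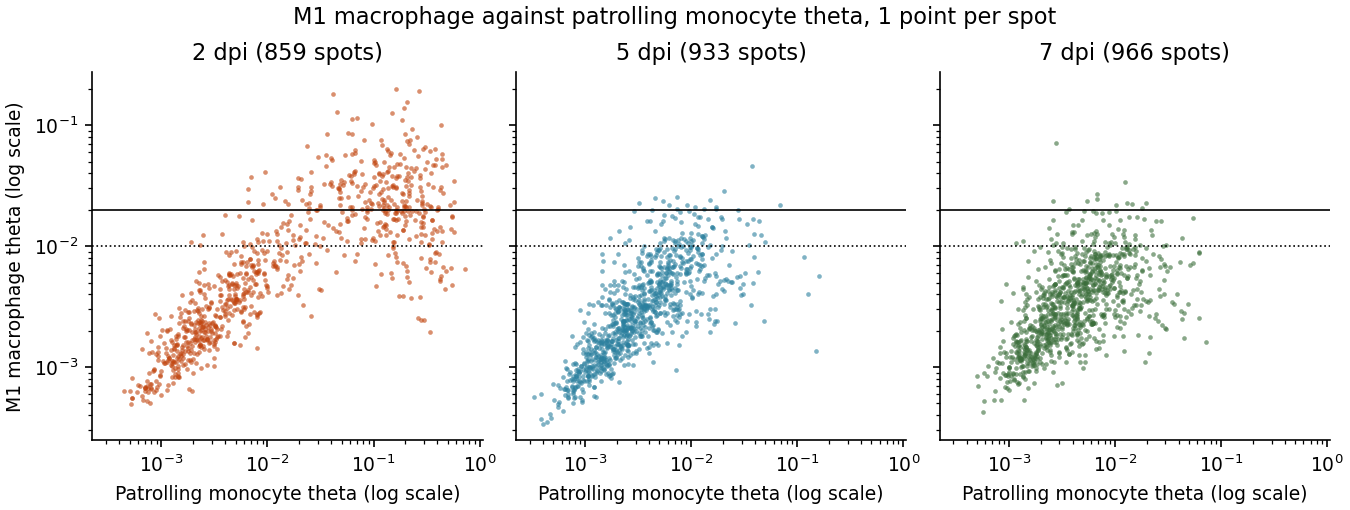
M1 macrophage theta (vertical axis) against patrolling monocyte theta (horizontal axis) per spot in each section, both as fractions of transcripts on log scales; the solid and dotted lines are the M1-rich minimum (0.02) and M1-low limit (0.01). The 2 dpi points rise together at low values and spread out level above a patrolling monocyte theta of about 0.02, and few points of the later sections lie above the solid line.

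The other monocytes and macrophages also had higher theta in M1-rich spots. Cxcl10+ monocytes, marked by an interferon-induced chemokine, had medians of 0.0224 and 0.00249 at 2 dpi, 0.0173 and 0.00259 at 5 dpi, and 0.00956 and 0.00300 at 7 dpi. Inflammatory monocytes, the classical monocytes recruited to injured tissue, had medians of 0.0135 and 0.00222, 0.00826 and 0.00209, and 0.00908 and 0.00231. Both were lower than patrolling monocytes in M1-rich spots at 2 dpi. Much of the difference at 2 dpi was not found once theta was rescaled without the myonuclei: the ratio of M1-rich to M1-low medians went from 8.999 to 1.80 for Cxcl10+ monocytes and from 6.10 to 1.18 for inflammatory monocytes, and was 1.56 and 1.06 on that scale in spots with 5000 to 10000 UMIs. As deposited, in 2 dpi spots with a nonmyonuclear theta of at least 0.4, the Cxcl10+ medians were 0.0237 in M1-rich and 0.0189 in M1-low spots. Those of inflammatory monocytes were 0.0142 and 0.00801.

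Cx3cr1-lo M2 macrophages had medians of 0.0223 in M1-rich and 0.00338 in M1-low spots at 2 dpi, 0.0127 and 0.00292 at 5 dpi, and 0.0123 and 0.00409 at 7 dpi. Cx3cr1-hi M2 macrophages, named for the fractalkine receptor, had 0.0153 and 0.00286, 0.0234 and 0.00283, and 0.0337 and 0.00569. After rescaling, the ratio at 2 dpi went from 6.58 to 1.39 for the Cx3cr1-lo and from 5.36 to 1.09 for the Cx3cr1-hi type, and in spots with 5000 to 10000 UMIs it was below 1, at 0.861 and 0.751. At 5 and 7 dpi the rescaled ratio over all spots was 1.41 and 1.27 for the Cx3cr1-lo type. For the Cx3cr1-hi type it was 2.10 and 2.22. The Cx3cr1-hi type reached a theta of 0.02 in 60 of 215, 9 of 15 and 8 of 12 M1-rich spots. In M1-low spots the shares were 2.57, 13.7 and 25.2%, so they were also higher in the later sections. In spots with a nonmyonuclear theta of at least 0.4, the Cx3cr1-hi medians were 0.0157 in M1-rich and 0.00762 in M1-low spots at 2 dpi, 0.0234 and 0.0276 at 5 dpi, and 0.0337 and 0.0312 at 7 dpi. The Cx3cr1-hi difference over all spots was thus smaller there at 2 dpi. In the later sections it was found after rescaling but not in these spots. The Cx3cr1-lo medians in those spots at 2 dpi were 0.0246 in M1-rich and 0.00768 in M1-low spots, a 3.21-fold difference.

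Dendritic cells, which present antigen, had medians of 0.00737 and 0.00197 at 2 dpi, 0.00538 and 0.00185 at 5 dpi, and 0.0111 and 0.00221 at 7 dpi. Neutrophils, the first cells to enter injured tissue, had 0.00718 and 0.00168, 0.00406 and 0.00150, and 0.00245 and 0.00133. At such fractions a shallow spot carries few reads of a type.

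Of the summed theta of the 8 myeloid types, M1 macrophages took 9.67, 9.08 and 8.25% for 2, 5 and 7 dpi, against 12.5% for an even split. In spots with 5000 to 10000 UMIs it was 8.02, 12.2 and 11.1%, so no order of the time points can be read from it. The share of patrolling monocytes was 50.1, 12.3 and 11.6% and that of Cx3cr1-hi M2 macrophages 6.71, 30.5 and 32.8%.

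At the later times every M1-rich spot also held signal of newly forming fibers. Fusing myocytes, the committed muscle precursors that join into fibers, reached a theta of 0.02 in all 15 M1-rich spots at 5 dpi and all 12 at 7 dpi, and in 150 of 215 at 2 dpi. In M1-low spots the shares were 69.7, 77.9 and 24.7% at 5, 7 and 2 dpi. Their median theta was 0.0272 in M1-rich and 0.00534 in M1-low spots at 2 dpi, 0.244 and 0.0617 at 5 dpi, and 0.204 and 0.0814 at 7 dpi. At 5000 to 10000 UMIs these were 0.0352 and 0.00470, 0.269 and 0.0663, and 0.238 and 0.0874, over 47, 5 and 3 M1-rich spots.

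The fusing myocyte difference over all spots was not found among spots with much nonfiber signal. After rescaling without the myonuclei, the M1-rich over M1-low ratio of medians over all spots was 0.917, 1.35 and 1.19 at 2, 5 and 7 dpi. The parts of fiber content and depth in this difference were not tested. Among spots with a nonmyonuclear theta of at least 0.4, fusing myocyte medians were lower in M1-rich than in M1-low spots, with 0.0277 and 0.0443 at 2 dpi, 0.244 and 0.281 at 5 dpi, and 0.204 and 0.248 at 7 dpi. The fibro-adipogenic progenitors (FAPs) called pro-remodeling, stromal cells that lay down matrix, had medians of 0.0157 and 0.00411 over all spots at 2 dpi, 0.0743 and 0.0153 at 5 dpi, and 0.0817 and 0.0347 at 7 dpi. Within the spots of at least 0.4 they were 0.0169 and 0.0165, 0.0743 and 0.0727, and 0.0817 and 0.0940. Tenocytes, the tendon cells, stood out at 7 dpi, with 0.0268 in M1-rich and 0.00418 in M1-low spots, and 0.0268 and 0.00677 in the spots of at least 0.4. At 5000 to 10000 UMIs the tenocyte medians at 7 dpi were 0.00803 in 3 M1-rich and 0.00533 in 142 M1-low spots, and the rescaled rank correlation was 0.0042 against 0.28 over all spots, so the 7 dpi difference was smaller at like depth. Tenocytes fall outside the naming rule and were chosen after their values were seen.

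The spots with the most M1 theta differed among themselves. In the 12 spots of at least 0.1 at 2 dpi, patrolling monocyte theta ran from 0.0411 to 0.435 with a median of 0.157, inflammatory monocyte theta from 0.00731 to 0.155, and UMIs from 1670 to 13279. The spot with the highest M1 theta at 7 dpi (0.0719) held 23336 UMIs, with a tenocyte theta of 0.175, a fusing myocyte theta of 0.203 and a patrolling monocyte theta of 0.00281. The highest at 5 dpi (0.0459) held 6382 UMIs, with a fusing myocyte theta of 0.269 and a patrolling monocyte theta of 0.0371.

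Across all spots M1 theta correlated positively with most types other than the myonuclei. The rank correlation was positive with 24, 23 and 24 of the 26 other types at 2, 5 and 7 dpi. At 2 dpi the 5 highest were Cx3cr1-lo M2 macrophages (0.87), T cells (0.86), Cxcl10+ monocytes (0.85), inflammatory monocytes (0.85) and Cx3cr1-hi M2 macrophages (0.84), and patrolling monocytes had 0.84. At 5 dpi they were Cx3cr1-lo M2 macrophages (0.82), inflammatory monocytes (0.80), Cx3cr1-hi M2 macrophages (0.80), patrolling monocytes (0.79) and Cxcl10+ monocytes (0.76). At 7 dpi they were inflammatory monocytes (0.76), Cx3cr1-lo M2 macrophages (0.66), Cxcl10+ monocytes (0.65), patrolling monocytes (0.64) and Cx3cr1-hi M2 macrophages (0.57).

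Myeloid types filled all 5 places at 5 and 7 dpi and all but that of T cells at 2 dpi, and neighbors in that order lay within 0.1 of each other. Dendritic cells had 0.79, 0.70 and 0.54 and neutrophils 0.82, 0.69 and 0.52. The lowest were type IIb myonuclei (-0.74, -0.47 and -0.45) and type IIx myonuclei (-0.14, -0.22 and -0.16) in each section, and the third lowest were smooth muscle at 2 dpi (0.36) and capillary endothelial cells at 5 and 7 dpi (-0.052 and 0.044). The 27 values of a spot sum to 1, so a spot with less fiber has a larger sum of all the rest. The part of that constraint in these correlations was not tested.

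Each spot was also rescaled so that the 25 types left after dropping both myonuclei types sum to 1. The rank correlation was then positive with 14, 22 and 21 of 24 other types. Its median over these types was 0.12, 0.34 and 0.35 at 2, 5 and 7 dpi. The Cx3cr1-lo M2 macrophages kept a rank correlation of 0.51, 0.49 and 0.43 for 2, 5 and 7 dpi, and it was 0.42, 0.53 and 0.43 with patrolling monocytes, 0.40, 0.55 and 0.62 with inflammatory monocytes, and 0.43, 0.36 and 0.39 with Cxcl10+ monocytes. Dendritic cells had 0.18, 0.47 and 0.45 and neutrophils 0.25, 0.51 and 0.47. Outside the myeloid types, T cells had 0.41, 0.41 and 0.41, B cells 0.13, 0.47 and 0.48, and activated muscle stem cells 0.35, 0.42 and 0.42. A positive value on this scale was thus not particular to the myeloid types.

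The median theta of 16, 15 and 12 of the 24 other types at 2, 5 and 7 dpi was lower in M1-rich than in M1-low spots after rescaling, while 24, 24 and 23 of 26 were higher as deposited. These counts are over all spots. In spots with a nonmyonuclear theta of at least 0.4, most rescaled medians were instead higher in M1-rich spots. There 21, 21 and 18 of the 24 types were higher and 3, 3 and 6 lower. The correlation with fusing myocytes and pro-remodeling FAPs over all spots turned negative on the rescaled theta. The 25 rescaled values also sum to 1, so a larger share of any type leaves less for the rest. The part of that constraint in the rescaled correlations was not tested. Fusing myocytes went from 0.63, 0.66 and 0.40 to -0.073, -0.29 and -0.34, and pro-remodeling FAPs from 0.62, 0.53 and 0.38 to -0.097, -0.23 and -0.19. The rescaled ratio of M1-rich to M1-low medians did not follow these signs in the later sections. At 2, 5 and 7 dpi it was 0.917, 1.35 and 1.19 for fusing myocytes and 0.793, 1.62 and 1.02 for pro-remodeling FAPs. Cx3cr1-hi M2 macrophages had 0.39, 0.22 and -0.016, and in spots with 5000 to 10000 UMIs 0.28, 0.37 and 0.32, so their low value at 7 dpi was not found at like depth. Rescaled M1 theta itself had a rank correlation with UMI count of -0.54, -0.52 and -0.36.

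In spots with 5000 to 10000 UMIs the Cx3cr1-lo M2 macrophages had a rescaled rank correlation of 0.37, 0.35 and 0.40, and it was 0.37, 0.46 and 0.48 with patrolling monocytes, and 0.35, 0.46 and 0.51 with inflammatory monocytes. All of these stayed positive, while the median over the 24 other types was 0.080, 0.27 and 0.11. T cells (0.32, 0.29 and 0.23) and NK cells (0.20, 0.30 and 0.28) were also above that median. Activated muscle stem cells had 0.19, 0.26 and 0.033. Fusing myocytes had -0.042, -0.27 and -0.26 and pro-remodeling FAPs 0.043, -0.11 and -0.034, so the sign for the FAPs at 2 dpi depended on the spots used.

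**Figure D5:**
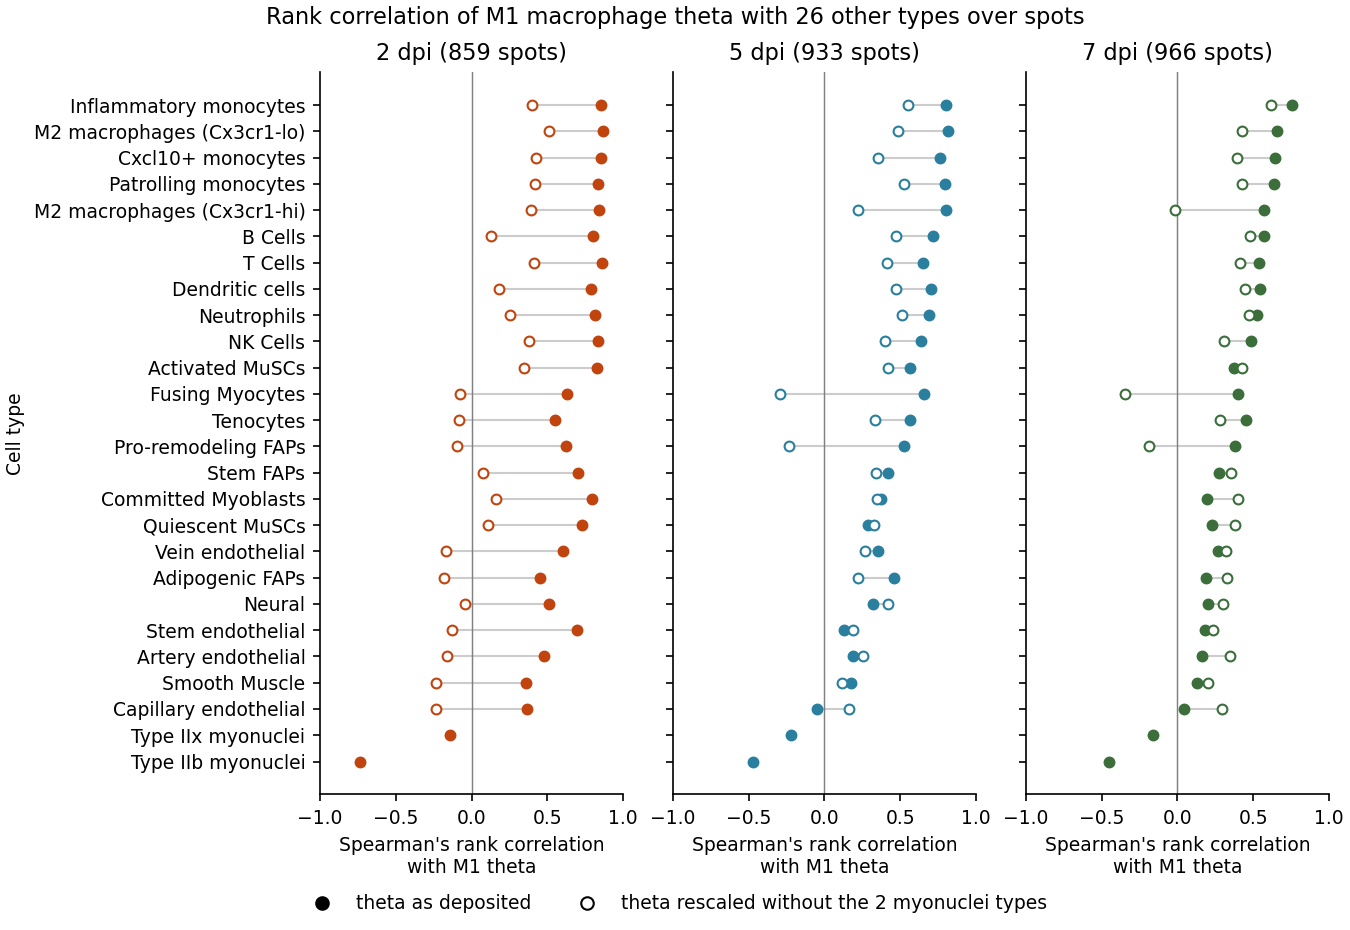
Spearman's rank correlation between M1 macrophage theta and the theta of 26 other types over the spots of each section, as deposited (filled) and after rescaling without the 2 myonuclei types (open). The monocyte types and Cx3cr1-lo M2 macrophages stay above 0.3 on both scales, as do T cells, NK cells and activated muscle stem cells. Fusing myocytes and pro-remodeling FAPs fall below 0 after rescaling.

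Within the 215 M1-rich spots of 2 dpi the relations were weak. The rank correlation was 0.089 with patrolling monocytes, 0.22 with inflammatory monocytes, 0.19 with Cxcl10+ monocytes, 0.16 with Cx3cr1-lo M2 macrophages and -0.32 with type IIb myonuclei. Among the 15 and 12 spots of 5 and 7 dpi it was 0.046 and -0.38 with patrolling monocytes. The selection narrows the range of M1 theta, and the high values over all spots were not found among the M1-rich spots alone.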

How the data were processed

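The authors aligned the Visium reads to mm10 with Space Ranger 1.0, chose the spots over tissue by hand, and used Seurat 3.2.1. Cell Ranger is also named in the submitters' processing notes. The deposited table of each section holds, per spot, UMI and gene counts, the percent of UMIs from mitochondrial, hemoglobin and ribosomal protein genes, and 27 theta values, which are fractions that the authors estimated with BayesPrism and that sum to 1. The methods describe 25 reference groups, so the table may stem from another version of the reference. Image alignment files were not used, since their positions carry no barcodes; spot positions were not analysed here.

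Spots were grouped by M1 theta (at least 0.02; under 0.01) within a section. Medians, Spearman's rank correlation and exact 95% intervals were computed with Python 3.11.15, pandas 2.3.3 and scipy 1.17.1, and the scripts were tested on simulated data. Types named are, per section, the 5 with the highest and 3 with the lowest rank correlation, and always the monocytes, M2 macrophages, dendritic cells, neutrophils, myonuclei, fusing myocytes and pro-remodeling FAPs. Members and lists were chosen with earlier results of these data known. No test was run, with 1 section per time point. Alternatives were other theta minima, depth ranges, rescaling, means, Pearson's r and partial correlation given UMIs.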

Additional observations from a re-analysis of the deposited data

Results flagged for a closer look

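After rescaling without myonuclei, 6 types had a rank correlation with M1 theta below -0.1 at 2 dpi and above 0.1 in both later sections, a criterion set after the values were seen. The difference between time points was not tested. The rank correlation at 2, 5 and 7 dpi was -0.13, 0.19 and 0.24 for stem endothelial cells, -0.17, 0.27 and 0.32 for vein endothelial cells, -0.16, 0.25 and 0.35 for artery endothelial cells, and -0.23, 0.16 and 0.29 for capillary endothelial cells. Adipogenic FAPs had -0.18, 0.22 and 0.33, and smooth muscle -0.24, 0.12 and 0.20. In spots with 5000 to 10000 UMIs, adipogenic FAPs had -0.19, 0.17 and 0.15 and capillary endothelial cells -0.20, 0.18 and 0.087. There artery endothelial cells had -0.091, 0.16 and 0.042, stem endothelial cells -0.074, 0.092 and 0.067, vein endothelial cells -0.19, 0.15 and -0.020, and smooth muscle -0.23, 0.060 and -0.013. Only adipogenic FAPs of these 6 types still met the criterion at like depth.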

How the results depend on the processing

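No paired analysis was possible because each time point is 1 section. Of 425 alternative values for 91 results, 165 stayed close to the value reported, 233 moved further and 27 changed direction. The share of M1-rich spots at 5 over 2 dpi (0.0642) and 7 over 2 dpi (0.0496) stayed below 1 throughout. It was 0.222 and 0.181 with a minimum theta of 0.01, 0 (0 of 933 spots) and 0.0178 (1 spot at 7 dpi) with 0.05, 0.127 and 0.119 in spots with 5000 to 10000 UMIs, 0.408 and 0.301 after rescaling, 0.499 and 0.391 after rescaling in those spots, and 0.0673 at 7 over 2 dpi with at least 3000 UMIs. Among alternatives chosen after seeing the data, the 5 over 2 dpi ratio was 0.103 with a nonmyonuclear theta of at least 0.4, 0.208 and, at 7 over 2 dpi, 0.141 with 5000 to 10000 UMIs as well, and 0.102 and 0.0948 when weighted over 4 UMI ranges. The mean M1 theta ratios (0.287 and 0.301) were 0.460 and 0.531 for medians, 0.442 and 0.490 in spots with 5000 to 10000 UMIs, and 0.423 and 0.381 rescaled.

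The rank correlation with Cx3cr1-lo M2 macrophages at 2, 5 and 7 dpi was 0.51, 0.49 and 0.43 rescaled, 0.37, 0.35 and 0.40 rescaled with 5000 to 10000 UMIs, and 0.77 at 7 dpi with 5000 to 10000 UMIs alone; Pearson's r was 0.45, 0.43 and 0.31. With patrolling monocytes it was 0.42, 0.53 and 0.43, then 0.37, 0.46 and 0.48, and 0.77 at 7 dpi; Pearson's r was 0.36, 0.32 and 0.24. In M1-rich spots only, an alternative chosen after seeing the data and kept for 2 dpi, it was 0.16 and 0.089, and it changed sign for Cx3cr1-hi M2 macrophages (-0.0087), dendritic cells (-0.041), fusing myocytes (-0.023), smooth muscle (-0.0015) and type IIx myonuclei (0.018). Rescaling turned the sign for fusing myocytes (-0.073, -0.29 and -0.34; with 5000 to 10000 UMIs -0.042, -0.27 and -0.26), pro-remodeling FAPs (-0.097, -0.23 and -0.19; at 5 and 7 dpi with 5000 to 10000 UMIs -0.11 and -0.034), smooth muscle at 2 dpi (-0.24 and -0.23) and Cx3cr1-hi M2 macrophages at 7 dpi (-0.016). Type IIx myonuclei had 0.23 at 5 dpi with 5000 to 10000 UMIs.

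Of the types named by the rule in all sections, the M1-rich over M1-low ratio of medians fell below 1 after rescaling for dendritic cells (0.807 at 2 and 0.802 at 5 dpi), neutrophils (0.819, 0.816 and 0.651), fusing myocytes (0.917) and pro-remodeling FAPs (0.793) at 2 dpi; smooth muscle (0.372) and capillary endothelial cells (0.349) were also below 1 there. The ribosomal protein ratio at 5 dpi was 1.67 for means. Medians with a minimum theta of 0.05 were not formed at 5 and 7 dpi (0 and 1 spots), a limit of 3 spots set after the first values were seen. Depth limits low theta values in shallow spots, and the cause of the changes was not tested.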
